A study of Arabidopsis thaliana with 15 samples.

Results

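Polygalacturonases are glycosyl hydrolases that cut homogalacturonan, the unbranched backbone of pectin, and so loosen or dissolve the pectin-rich wall between and around plant cells. They act mostly on pectin whose methyl groups have been removed by pectin methylesterases, and pectate lyases cut the same de-esterified chain by another reaction. The wall of the pollen tube tip is rich in pectin, mature pollen grains are known to carry large amounts of polygalacturonase transcripts, and the tissue that a tube crosses in the stigma and style is held together by pectin as well.

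The family was followed here as 58 listed Arabidopsis loci, on Affymetrix ATH1 arrays of pollen. Of these loci, 40 had a probe set that named them alone, and these 40 are the members counted below among 22746 probe sets tested. Another 12 loci were read only by 5 probe sets that each named 2 or 3 polygalacturonase loci. These 5 are described apart and are not counted. The remaining 6 loci, which include PGA4, PGAZAT, QRT2 and QRT3, had no probe set naming them and were not analysed here. The list came from the family's annotation and used no measured value, but members were chosen with earlier results of these data known.

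The 15 arrays were made from wild-type pollen of the Columbia accession (Col-0). There were 3 arrays of semi in vivo pollen tubes (SIV PT), 4 of dry, ungerminated pollen, 4 of pollen after 0.5 h in liquid growth medium (0.5 h PT) and 4 after 4 h in the same medium (4 h PT). SIV PT had grown for 3 h in cut pistils of the male sterile ms1 line (Landsberg) and then out over solid medium, for 5 h by the sample label but 3 h by the protocol text, and each replicate pooled bundles cut from 800 pistils. As models the samples are limited by the collection. 4 h PT still held grains that had not germinated, SIV PT bundles were cut off where they left the pistil, and 2 µg of RNA went into each SIV PT labelling reaction against 5 µg for each other array. Condition, RNA input and growth on solid or in liquid medium cannot be told apart in this design.

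Signals of replicate arrays correlated at r = 0.961 to 0.967 in SIV PT. The range was 0.944 to 0.967 for dry pollen, 0.945 to 0.957 for 0.5 h PT and 0.928 to 0.952 for 4 h PT. The SIV PT arrays stood apart in their signal distribution. The 100 strongest probe sets held 23.3 to 24.98% of the summed signal there, against 27.9 to 32.7% on the other arrays. The ratio of 3' to 5' signal of the GAPDH control was 6.59 to 9.72 in SIV PT, against 1.25 to 2.88 elsewhere. For the ubiquitin control the ratio was 3.34 to 4.05 in SIV PT and 2.11 to 3.86 elsewhere, so those ranges overlapped. The part of RNA length or amplification in the results was not tested. All 5 measured pollen markers (of 10 listed) were expressed in every condition, with a summed signal of 78810 to 79570 in SIV PT and 118014 to 123800 in dry pollen. Neither of the 2 measured pistil markers (of 8 listed) reached the limit for expression, and they summed to 87.2 to 133 on the SIV PT arrays, 103 to 228 for dry pollen and 145 to 177 for 4 h PT. In bulk samples, fewer cells carrying a transcript and less RNA per cell cannot be told apart.

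Most of the family gave little signal in pollen. A member was called expressed where its mean log2 signal in a condition was at least 8. By that limit 12 of the 40 members were expressed in at least 1 condition and 28 in none. SIV PT expressed 10 members, dry pollen 9, 0.5 h PT 8 and 4 h PT 9. In all conditions 7 members were expressed, and 3 were expressed in SIV PT alone (AT4G13760, AT1G23460 and AT2G40310). With the limit at a signal of 100 the counts were 10 and 2, as AT4G13760 then also counted as expressed in 4 h PT. With a log2 limit of 9 they were 4 and 4.

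**Figure D1:**
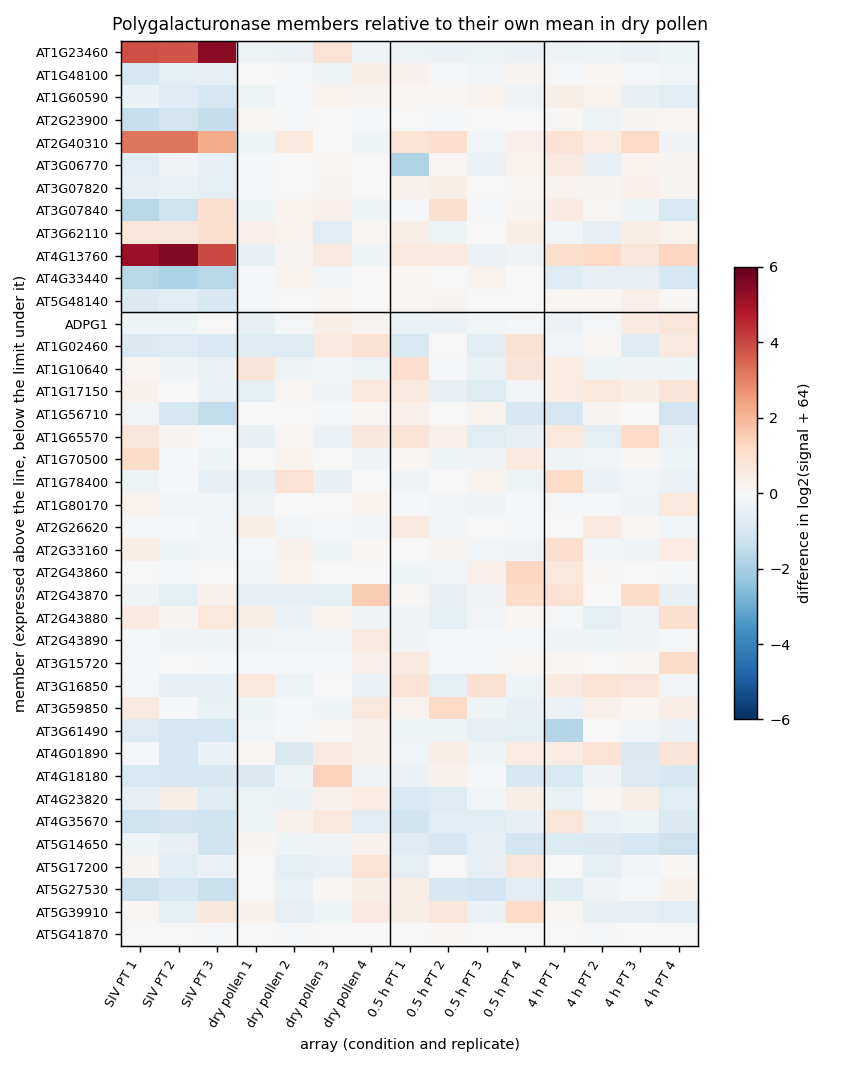
Each row is 1 of the 40 members, each column 1 of the 15 arrays, and colour gives the difference in log2(signal + 64) from that member's own mean in dry pollen. The 12 expressed members are above the horizontal line and the 28 others below it. AT4G13760, AT1G23460 and AT2G40310 are high on all 3 SIV PT arrays and on no array of another condition.

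A probe set counted as changed when limma's log odds B was above 3 and the fold was at least 3, over 1 linear model of all 15 arrays. In SIV PT against dry pollen, 3 members rose and 1 fell, where 4.08% of all probe sets rose and 2.82% fell. In SIV PT against 4 h PT, 2 members rose and none fell, where 2.71% rose and 2.08% fell. At an unadjusted p under 0.05, limma gave 12 members lower and 4 higher than in dry pollen, beside 15.3% lower and 17.9% higher over all probe sets, and 9 lower and 4 higher than in 4 h PT, beside 13.9% and 17.1%. With 40 members these counts are small. At that p, the share of lower members was above that over all probe sets, and the share of higher members was below it, in both comparisons. The difference from all probe sets was not tested. The median log2 change over the members was -0.23 against dry pollen and -0.31 against 4 h PT, beside -0.06 and -0.07 over all probe sets. With median centring the members were at -0.14 and -0.20, beside 0.03 and 0.05 over all probe sets. With quantile normalization they were at -0.14 and -0.19, beside -0.05 and -0.05. Both comparisons use the same 3 SIV PT arrays. The study listed polygalacturonase activity as overrepresented among its SIV PT-enriched genes, relative to pollen-expressed genes. That result drew on these same arrays, so the rises of members given here are no independent evidence. Members with no overlap between the arrays of the groups were lower in SIV PT than in dry pollen for 13 and higher for 4, where 16.3% and 17.6% of all probe sets did so. Against 4 h PT the counts were 9 lower and 4 higher, beside 13.2% and 15.3%.

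AT4G13760 had the largest log2 change of the 40 members in SIV PT against dry pollen, while against 4 h PT that of AT1G23460 was larger. Its signal was 3218, 4007 and 1310 on the 3 SIV PT arrays, 2.06, 35.9, 65.7 and 11.2 in dry pollen, 72.2, 69.4, 6.79 and 12.4 in 0.5 h PT, and 121, 142, 84.9 and 158 in 4 h PT. The SIV PT arrays were thus all above every other array, with SIV PT replicate 3 the lowest of them. It rose by 4.88 on the log2(signal + 64) scale in SIV PT against dry pollen (SE 0.36, adjusted p = 5.15e-08 by limma), which is 29.5-fold. Against 4 h PT it rose by 3.81 (SE 0.36, adjusted p = 1.31e-06), or 14.0-fold. Within the in vitro course, the 4 h PT arrays were all above those of dry pollen, at 126 ± 31.5 in 4 h PT and 28.7 ± 28.5 in dry pollen (SD, n = 4 each). That difference of 1.07 (SE 0.33, adjusted p = 0.131) did not pass.

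AT1G23460 was near the bottom of the scale on 11 of the 12 arrays outside SIV PT. SIV PT gave 1199, 1133 and 3581, dry pollen 6.40, 3.86, 91.9 and 11.9, 0.5 h PT 6.16, 3.22, 5.70 and 3.38, and 4 h PT 5.27, 9.44, 4.21 and 7.76. SIV PT replicate 3 was here the highest of its group, the opposite of its place for AT4G13760. AT1G23460 rose by 4.35 against dry pollen (SE 0.35, adjusted p = 1.11e-07) and by 4.64 against 4 h PT (SE 0.35, adjusted p = 1.27e-07). The platform table names AT1G23460 alone for this probe set, while another annotation of the array marks it as matching several genes and describes a gene like AT1G70500, so the transcript read may not be AT1G23460 only. AT1G70500 has a probe set of its own, which averaged 47.3 in SIV PT and 22.4 in dry pollen and was not called expressed. Without the AT1G23460 probe set, 1 member rose against 4 h PT.

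AT2G40310 gave 803, 800 and 374 in SIV PT, 12.1, 74.1, 27.4 and 13.3 in dry pollen, 101, 122, 18.0 and 50.5 in 0.5 h PT, and 107, 61.0, 145 and 14.9 in 4 h PT. All SIV PT arrays were above all others. It rose by 2.89 against dry pollen (SE 0.37, adjusted p = 1.93e-05). The call was lost without SIV PT replicate 1 (2.73, B = 2.90) or replicate 2 (2.73, B = 2.90) and with a smaller offset of 16 (3.92, B = 2.83). Against 4 h PT its log2 change of 2.33 (SE 0.37, adjusted p = 0.000225, B = 2.95) lay just under the limit on B. It passed there in 7 of 23 alternatives, among them median centring (2.45) and the fit without SIV PT replicate 3 (2.66).

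**Figure D2:**
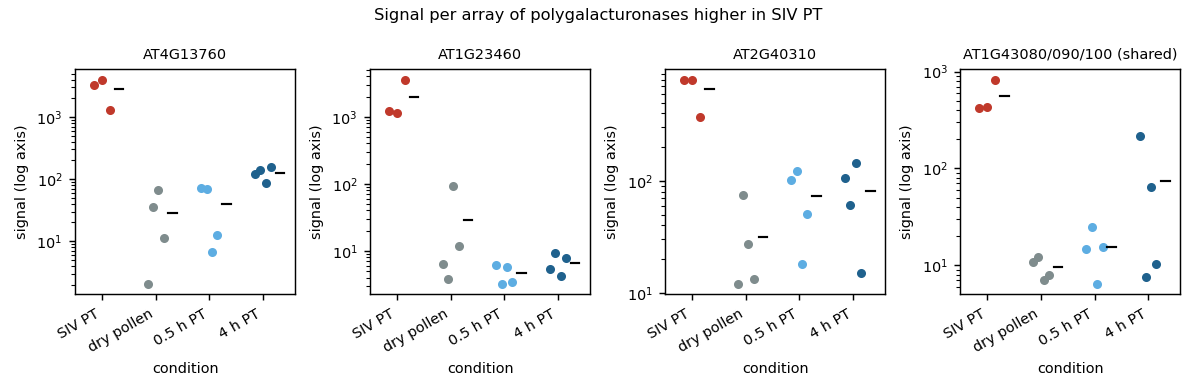
Points are the signals of single arrays on a log axis, in 4 panels with SIV PT at the left of each, and short lines mark the means. In the panels of AT4G13760, AT1G23460 and AT2G40310 and of the probe set shared by AT1G43080, AT1G43090 and AT1G43100, the 3 SIV PT points are above every other point.

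One of the shared probe sets was also highest in SIV PT. The probe set of AT1G43080, AT1G43090 and AT1G43100, which are next to each other on their chromosome, gave 419, 429 and 827 in SIV PT, against 10.9, 12.1, 7.03 and 8.01 in dry pollen. 0.5 h PT gave 14.8, 25.1, 6.44 and 15.4, and 4 h PT 216, 7.57, 63.8 and 10.3. The 4 h PT arrays were spread widely but stayed below SIV PT. The probe set rose by 3.02 against dry pollen (SE 0.37, adjusted p = 1.24e-05) and by 2.34 against 4 h PT (SE 0.37, adjusted p = 0.000213). The second call rested on B = 3.02 and was lost in 18 of 23 alternatives, 14 of which left out 1 array. Which of the 3 loci was read cannot be said from this probe set.

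AT4G33440 was the 1 member that fell. SIV PT gave 1743, 1472 and 1783, dry pollen 5304, 6707, 5147 and 5876, 0.5 h PT 6280, 5680, 6667 and 5598, and 4 h PT 3340, 4002, 4027 and 2708. The SIV PT arrays were the lowest and the 4 h PT arrays lay between them and the dry pollen arrays, with no overlap. It fell by 1.75 against dry pollen (SE 0.18, adjusted p = 1.71e-06), which is 3.36-fold. Against 4 h PT the log2 change was -1.04 (SE 0.18, adjusted p = 0.000455), short of 3-fold.

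Another 3 expressed members had strong signals on every array and were lower in SIV PT without reaching 3-fold. AT3G07820 gave 88827, 94714 and 82893 in SIV PT, against 118621, 119809, 136516 and 120714 in dry pollen. 0.5 h PT gave 148071, 159474, 126622 and 128454, and 4 h PT 143878, 140856, 151288 and 139360. SIV PT was below every other array, with a log2 change of -0.48 against dry pollen (SE 0.15, adjusted p = 0.0268) and -0.70 against 4 h PT (SE 0.15, adjusted p = 0.00268), under 3-fold in both. The sign turned with quantile normalization, at 0.05 against dry pollen and 0.11 against 4 h PT.

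AT5G48140 gave 53437, 62362 and 50490 in SIV PT, against 94399, 97778, 108000 and 96662 in dry pollen. 0.5 h PT gave 108388, 109362, 100619 and 100885, and 4 h PT 106953, 106072, 121039 and 105665. SIV PT was again lowest on every array, and the in vitro conditions overlapped with dry pollen. The log2 change was -0.84 against dry pollen (SE 0.15, adjusted p = 0.000366) and -0.99 against 4 h PT (SE 0.15, adjusted p = 0.000112).

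AT2G23900 gave 23874, 29430 and 23166 in SIV PT, against 65254, 60268, 64220 and 59850 in dry pollen. 0.5 h PT gave 60747, 56992, 61279 and 63944, and 4 h PT 65727, 50410, 70653 and 67327. The in vitro arrays overlapped with dry pollen, and all SIV PT arrays were below them. Its log2 change of -1.30 against dry pollen (SE 0.16, adjusted p = 1.52e-05) and -1.31 against 4 h PT (SE 0.16, adjusted p = 2.10e-05) came nearest to 3-fold of all members that did not pass.

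These shifts stand beside the compressed upper range of the SIV PT arrays. The 100 probe sets with the strongest signal had a median log2 change of -0.80 in SIV PT against dry pollen and -0.97 against 4 h PT, and of -0.04 and -0.09 after quantile normalization. Quantile normalization gives every array the same distribution, so smaller shifts at the top of the range are built into it. After that normalization AT5G48140 was at -0.11 and -0.10 and AT2G23900 at -0.34 and -0.30. The part of the signal range in the lower values of these members was not tested. For AT4G33440, the change against dry pollen stayed between -1.995 and -1.64 over 23 alternatives.

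The probe set shared by AT3G07850 and AT3G14040 gave 34677, 40206 and 45956 in SIV PT, against 125677, 122649, 155582 and 130591 in dry pollen. The mean was 146953 for 0.5 h PT and 149958 for 4 h PT. It fell by 1.73 against dry pollen (SE 0.17, adjusted p = 8.15e-07) and by 1.90 against 4 h PT (SE 0.17, adjusted p = 6.11e-07), and with quantile normalization it did not pass (-0.96 and -0.86). AT3G07850 lies in a run of 4 adjacent polygalacturonase loci, AT3G07820, AT3G07830, AT3G07840 and AT3G07850, of which AT3G07820 and AT3G07840 are members. The other 3 shared probe sets did not pass in either comparison.

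**Figure D3:**
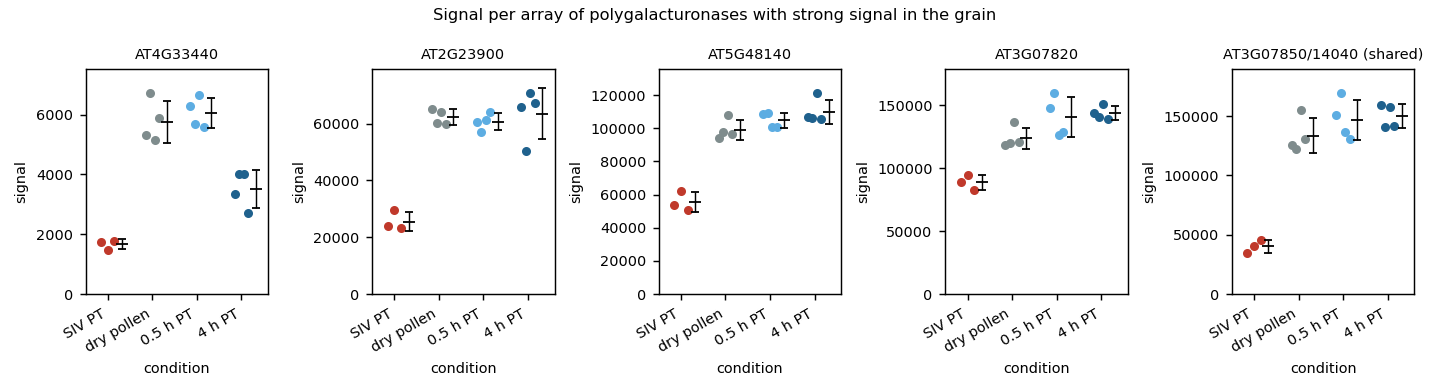
Points are the signals of single arrays on a linear axis from 0, with the mean and SD beside each group, for AT4G33440, AT2G23900, AT5G48140, AT3G07820 and the probe set shared by AT3G07850 and AT3G14040. SIV PT, at the left of each panel, is below all other arrays in every panel, and AT4G33440 is also lower in 4 h PT than in 0.5 h PT.

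Of the other expressed members, AT3G62110 gave 777, 740 and 910 in SIV PT, against 563, 508, 255 and 486 in dry pollen. 0.5 h PT gave 568, 340, 425 and 604, and 4 h PT 382, 292, 591 and 515. All SIV PT arrays were higher than all others, with a log2 change of 0.80 against dry pollen (SE 0.27, adjusted p = 0.0417) and 0.81 against 4 h PT (SE 0.27, adjusted p = 0.0423), under the limits on B and fold. With quantile normalization the log2 changes of AT3G62110 shrank to 0.29 against dry pollen and 0.37 against 4 h PT. With median centring they were 0.88 and 0.93.

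AT3G07840 varied widely within SIV PT. SIV PT gave 147, 219 and 1227, against 495, 711, 770 and 499 in dry pollen, 559, 1230, 574 and 687 in 0.5 h PT, and 890, 650, 491 and 291 in 4 h PT. SIV PT replicate 3 was above every dry pollen array and the other two below, so the groups overlapped. The log2 change against dry pollen was -0.66 (SE 0.50, adjusted p = 0.418), and it rested on which SIV PT array was in the fit. It was -1.46 without SIV PT replicate 3 (adjusted p = 0.0111), -0.15 without replicate 1 and -0.36 without replicate 2, and passed in none of these.

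AT1G48100, which encodes PGX3, a polygalacturonase of stomatal cell walls, gave 178, 269 and 279 in SIV PT, against 408, 377, 345 and 578 in dry pollen. 0.5 h PT gave 523, 378, 368 and 470, and 4 h PT 390, 453, 389 and 361. SIV PT was lower with no overlap, by a log2 change of -0.68 against dry pollen (SE 0.20, adjusted p = 0.0194) that did not pass. That change was -0.99 with quantile normalization and -0.59 with median centring. AT1G60590 was lower than dry pollen in a like way (-0.74, SE 0.26, adjusted p = 0.0460). With quantile normalization AT1G60590 was at -1.16 against dry pollen, and with median centring at -0.65. It gave 429, 305 and 245 in SIV PT, 453, 530, 687 and 659 in dry pollen, 621, 617, 685 and 495 in 0.5 h PT, and 762, 675, 407 and 348 in 4 h PT, where it overlapped with SIV PT. AT3G06770 stayed near the limit for expression, with 143, 216 and 169 in SIV PT, 234, 266, 285 and 250 in dry pollen, 27.6, 275, 186 and 304 in 0.5 h PT, and 403, 167, 312 and 294 in 4 h PT. It did not pass against dry pollen (-0.44, SE 0.38, adjusted p = 0.486).

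**Figure D4:**
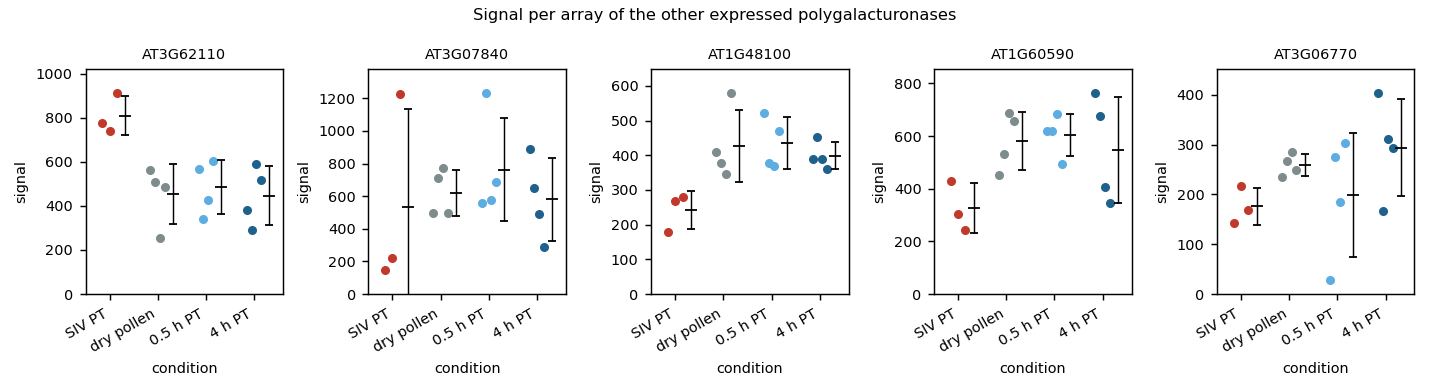
Points are the signals of single arrays on a linear axis from 0, with mean and SD, for AT3G62110, AT3G07840, AT1G48100, AT1G60590 and AT3G06770, which did not pass in any comparison. AT3G62110 is higher on all 3 SIV PT arrays than on any other, and AT3G07840 has 1 SIV PT array at 1227 and the others at 147 and 219.

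**Figure D5:**
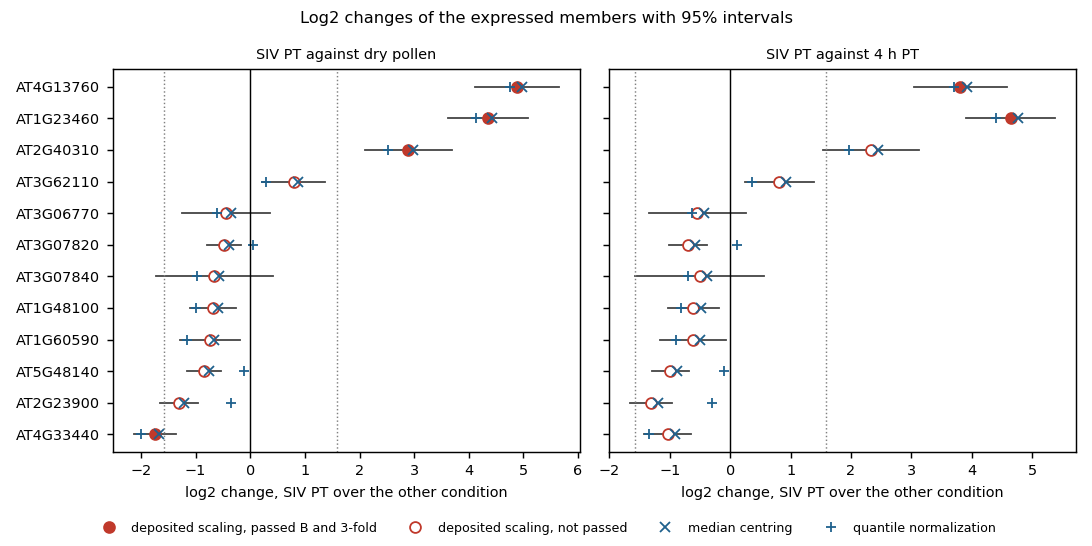
Circles are the log2 changes of the 12 expressed members in SIV PT over dry pollen at the left and over 4 h PT at the right, with 95% intervals. Filled circles passed both limits, dotted lines mark 3-fold, and crosses give the values under other scalings. Quantile normalization moves AT3G07820, AT5G48140, AT2G23900 and AT3G62110 closer to 0. Under it, AT4G13760, AT1G23460, AT2G40310, AT4G33440 and AT1G60590 are outside 2-fold in SIV PT over dry pollen.

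The 28 members below the limit had array signals between 3.11 and 314 and condition means between 4.89 and 258. They include ADPG1, which acts in the opening of anthers and siliques, AT1G78400 (PGX2, a polygalacturonase of expanding cells), AT2G33160 (NIMNA) and AT5G14650. Their condition means had a median over the members of 25.8 for SIV PT, 45.2 for dry pollen, 49.9 for 0.5 h PT and 47.4 for 4 h PT. No called change fell among them. In SIV PT against dry pollen, 6 of the 28 (21.4%) were lower with no overlap and none higher, where 10% of the 16050 probe sets below the limit in every condition were lower and 6.04% higher. Against 4 h PT it was 4 (14.3%) lower and none higher, beside 7.83% and 4.91%. At such signals a change cannot be measured well, because no detection calls were used and the offset of 64 is larger than many of the values.

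Among them, AT5G27530 and AT4G35670 came nearest to the fold limit. AT5G27530 averaged 28.1 ± 9.36 in SIV PT (SD, n = 3) and 156 ± 45.0 in dry pollen (SD, n = 4), with a log2 change of -1.23 (SE 0.32, adjusted p = 0.00888). AT4G35670 averaged 8.58 in SIV PT and 111 in dry pollen, with a log2 change of -1.19 (adjusted p = 0.0162). Both had SIV PT arrays below all dry pollen arrays and did not pass. The 3 adjacent members AT2G43870, AT2G43880 and AT2G43890 were all below the limit.

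Within the in vitro course, no member passed. No member changed in 4 h PT relative to dry pollen, where 0.765% of all probe sets did. None changed in 4 h PT relative to 0.5 h PT (0.51% of all) or in 0.5 h PT relative to dry pollen (0.0615% of all). At an unadjusted p under 0.05, limma gave 1 higher and 2 lower members when 4 h PT was set against dry pollen, where 6.9% of all probe sets were higher and 6.23% lower. It gave 2 higher and 2 lower for 4 h PT over 0.5 h PT (5.98% and 5.19% of all), and none higher and 2 lower for 0.5 h PT over dry pollen (2.98% and 3.07% of all). AT4G33440 was lower in 4 h PT than in dry pollen by -0.71 on the log2 scale (SE 0.17, adjusted p = 0.0344) and than in 0.5 h PT by -0.79 (SE 0.17, adjusted p = 0.0239). AT5G14650, known as PGLR in root growth, averaged 19.1 ± 10.8 in 4 h PT and 102 ± 29.6 in dry pollen, a log2 change of -0.99 (SE 0.22, adjusted p = 0.0260). Neither passed the limits.

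Other pectin genes, from lists of loci, moved in both directions in SIV PT. Of 22 measured pectate lyases (26 listed), 2 rose and 2 fell against dry pollen and likewise against 4 h PT, with median log2 changes of -0.37 and -0.12. Over all probe sets, 4.08% rose and 2.82% fell against dry pollen, and 2.71% rose and 2.08% fell against 4 h PT. AT5G09280 averaged 33942 ± 3061 in SIV PT, against 64.9 ± 39.9 in dry pollen (log2 change 8.09, adjusted p = 1.51e-08) and 2905 ± 1878 in 4 h PT (3.86, adjusted p = 5.49e-05), and it also rose in 4 h PT against dry pollen (4.23, adjusted p = 9.78e-05). AT3G09540 averaged 2216 ± 652 in SIV PT and 15.1 ± 6.81 in dry pollen, and rose by 4.81 (adjusted p = 1.47e-08). AT5G15110 (9005 in SIV PT, 72870 in dry pollen, -3.02, adjusted p = 1.93e-09) and AT59, a pollen pectate lyase (14667 in SIV PT, 73677 in dry pollen, -2.39, adjusted p = 6.32e-07), fell. AT59 fell by 2.31 against 4 h PT as well and lost that call under quantile normalization (-1.495, B = 2.23). The call for AT5G09280 against 4 h PT was lost without any 1 of the SIV PT arrays (3.80 to 3.93).

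Of 7 measured pollen pectin methylesterases (12 listed), which remove the methyl groups from pectin, 4 fell and none rose in both SIV PT comparisons, with median log2 changes of -4.49 against dry pollen and -3.55 against 4 h PT. The share of all probe sets that fell was 2.82% against dry pollen and 2.08% against 4 h PT. At an unadjusted p under 0.05, limma gave all 7 as lower, as it did 92 of the 100 probe sets of highest signal against dry pollen and 98 of them against 4 h PT. The 3 that did not pass, AT2G26450, AT3G05610 and AT5G07430, had log2 changes of -0.57, -0.62 and -0.51 against dry pollen, smaller than the median of -0.80 over those 100 probe sets. Some genes of this list were noted in the study from these arrays, so their direction on the arrays is no independent evidence. The study also measured AT5G27870 and AT3G06830 by quantitative PCR on newly isolated RNA. Both had less transcript in SIV PT there, with 4 h PT as the reference. AT5G27870 averaged 1118 ± 118 in SIV PT and 53876 ± 4139 in dry pollen, a log2 change of -5.51 (adjusted p = 5.61e-11). AT3G06830, AT5G07420 and AT4G15980 fell as well, with log2 changes of -4.84, -4.59 and -4.49 against dry pollen.

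Of 3 measured GAUT genes (15 listed), which build homogalacturonan, 1 fell and none rose against dry pollen. Over all probe sets, 2.82% fell and 4.08% rose. GAUT14 averaged 2364 ± 13.6 in SIV PT and 9161 ± 849 in dry pollen, and fell by 1.92 (adjusted p = 3.44e-07). It did not pass against 4 h PT (-1.33, adjusted p = 2.74e-05). GAUT7 was higher in SIV PT, at 528 ± 163 against 168 ± 47.3 in dry pollen (log2 change 1.34, limma adjusted p = 0.00617). Against 4 h PT, at 156 ± 94.2, the log2 change of GAUT7 was 1.49 (limma adjusted p = 0.00346). GAUT7 passed in neither, though its SIV PT arrays were above all arrays of both conditions. The 1 measured inhibitor of the 4 listed, PMEI2, a pectin methylesterase inhibitor, averaged 295 ± 124 in SIV PT and 141 ± 53.0 in dry pollen and did not pass (0.79, adjusted p = 0.158). Against 4 h PT, at 87.4 ± 84.3, the log2 change of PMEI2 was 1.37 (limma adjusted p = 0.0150). That did not pass either, and the arrays overlapped.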

How the data were processed

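The deposited values are intensity, 1 linear signal for each probe set, which the authors scaled with GCOS (version not given in the sources used here) in 1 table of 15 arrays with a 2% trimmed mean near 500 on each. No detection calls were used. The study's own RMA values cannot be rebuilt from signals per probe set.

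Arrays were grouped by their labels. The 64 control probe sets were left out. Probe sets were named from the platform table where it gives 1 gene (13496, with 490 giving several) or from the supplementary annotation (1969), and 6791 had no name. Neighbouring loci came from RefSeq's TAIR10.1 gene order. All arrays entered 1 fit of log2(signal + 64) in limma 3.58.1 (R 4.3.3), in which each condition had a mean of its own, with empirical Bayes variances without trend (11 residual and 3.97 prior degrees of freedom) and Benjamini-Hochberg adjustment over 22746 probe sets. Folds are on the log2(signal + 64) scale and understate changes of low signals. No signal of 1 probe set is set against that of another. The script was tested on simulated data. Replicates are biological by label, and their number limits the precision.

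Changed members, and those expressed, are given array by array. The 3 uncalled members nearest the fold limit, up to 4 changed genes of each pectin list and the shared probe sets are also named. Members and lists were chosen with earlier results of these data known. Alternatives were offsets of 16 and 256, median centring, quantile normalization, the replicate number as a block, a variance trend, another call rule, a filter on low signal, other limits for expression and leaving out each array.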

Additional observations from a re-analysis of the deposited data

Results flagged for a closer look

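In 36 groups of 4 arrays, 1 array stood far from the rest in 3. Chance gives about 5% of groups such an array, and the 3 cases were AT1G23460, AT3G07820 and AT5G48140. AT1G23460 had a signal of 91.9 in dry pollen replicate 3, against 3.86 to 11.9 in the other dry pollen arrays. AT3G07820 had 137000 in dry pollen replicate 3, against 119000 to 121000 in the others. AT5G48140 had 121000 in 4 h PT replicate 3, against 106000 to 107000 in the others.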

How the results depend on the processing

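Over 23 alternatives, the calls of AT4G13760 and AT1G23460 in both SIV PT comparisons and of AT4G33440 in SIV PT against dry pollen kept their direction and their side of the limits. Of 1104 single values under alternatives, 1051 kept both, 44 lost a call, 7 gained one and 2 turned sign. Those 2 were AT3G07820 under quantile normalization, at 0.0484 against dry pollen and 0.11 against 4 h PT. The count of changed members in SIV PT against 4 h PT was 1 without the AT1G23460 probe set, an alternative chosen after seeing the data, and 14 members were expressed in 4 h PT at a signal limit of 100. AT3G09540 rose in 4 h PT against 0.5 h PT (1.85), a call lost in 14 of 23 alternatives. Over all probe sets, 929 rose and 642 fell in SIV PT against dry pollen, beside 1041 and 566 with median centring and 760 and 727 with quantile normalization. Against 4 h PT these were 616 and 474, 770 and 407, and 503 and 500. Same-numbered arrays shared only a number: their deviations correlated at -0.02 to 0.04 over 21 pairs, none over 0.1. With the replicate block, 4 members changed against dry pollen and 2 against 4 h PT, and no member's call changed. The block did end the calls of the AT1G43080, AT1G43090 and AT1G43100 probe set (2.27) and of AT5G09280 (3.94) against 4 h PT. Signals near the offset limit what can be seen in the 28 low members.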
